A study of Zea mays with 24 samples.

Results

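The boundary between embryo and endosperm in the maize seed was compared from either side, as endosperm adjacent to the scutellum (EAS) against apical scutellum (AS). The members were chosen by tissue label and are 4 EAS and 4 AS libraries, 8 of the 24 libraries of the series. All came from untreated wild type plants of the maize inbred B73, raised under glass with a 24 °C day, a 19 °C night and 16 h of light (100 W/m2), and the labels name 100 mg of tissue per sample. Replicates 1, 2 and 4 of both tissues share the harvest days 27 April, 1 May and 18 May. AS replicate 3 was harvested on 4 May, and the label of EAS replicate 3 reads as 5 April. The labels give neither seed age nor how the tissues were separated. Where larger samples are used beside them, these are the 4 libraries each of endosperm (End) and embryo (Emb) of the same line, and the labels do not say whether End contained EAS or Emb contained AS.

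The scutellum is the embryo's shield-shaped organ that lies against the endosperm, stores oil and protein and takes up what the endosperm releases. The endosperm stores starch and storage proteins and is reshaped where the growing embryo presses into it. MicroRNAs are cut from longer polyadenylated precursor transcripts and lower the output of target mRNAs, many of which encode transcription factors. The reads here measure those precursors and say nothing of the mature small RNA.

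The transcriptomes of the faces stood far apart. Of 26543 tested features, 3013 (11.4%) were called 8-fold higher in EAS and 3266 (12.3%) 8-fold higher in AS, called meaning a fitted fold of at least 8 with an adjusted p below 0.05 in edgeR's quasi-likelihood test. At any fold, 11029 (41.6%) were higher in EAS and 10849 (40.9%) higher in AS, a balance that the scaling largely sets: without TMM factors, which were 0.810 to 0.880 in EAS and 1.03 to 1.04 in AS, the median log2 change moved from 0.00511 to -0.242 and the counts to 9152 and 12641. The median size of the log2 change was 1.18, and 44.6% of features changed by less than 2-fold. Libraries of EAS and AS had a mean Spearman correlation across genes of 0.767, against 0.992 within EAS and 0.994 within AS. The larger samples of endosperm and embryo were nearly as far apart. Between End and Emb the mean correlation was 0.793. The median size of the log2 change was 1.07 there, and 48.1% of features changed by less than 2-fold.

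**Figure D1:**
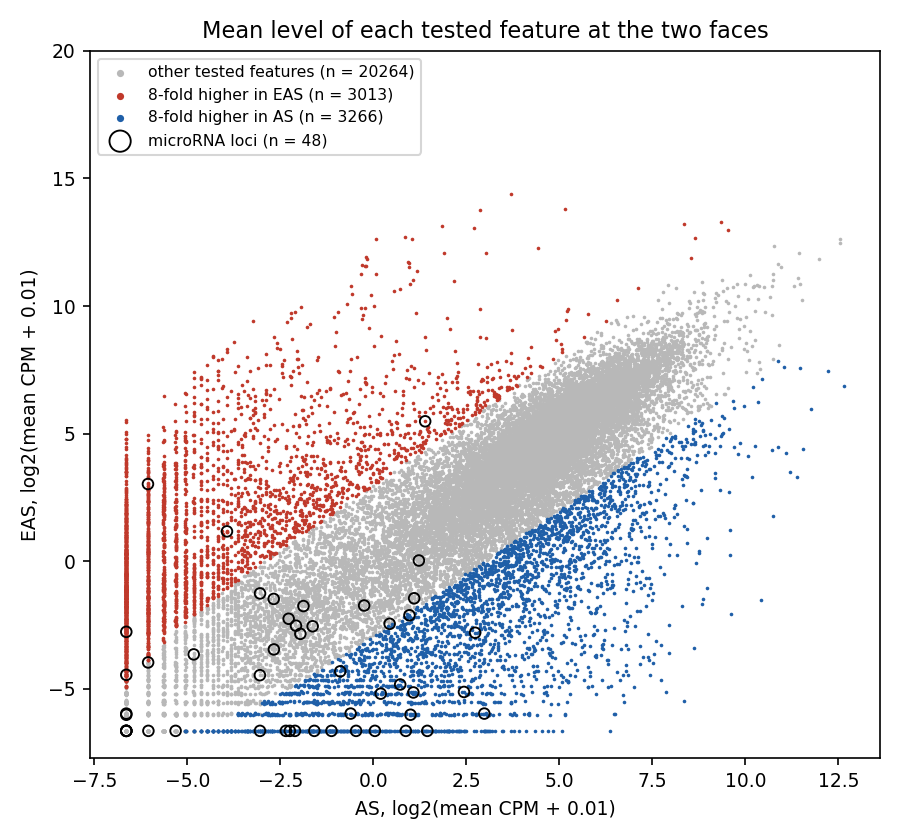
Mean level of each tested feature in AS (horizontal) and EAS (vertical), as log2 of the mean CPM over 4 libraries plus 0.01. Red points are the 3013 features called 8-fold higher in EAS, blue points the 3266 called 8-fold higher in AS, and open circles the 48 tested microRNA loci, most of which lie on the AS side or near 0 in both.

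The features called 8-fold different held a large share of the reads of their own face. They were chosen on these same libraries, so their smaller share at the other face follows from the choice. The 3013 EAS-high features took 25.8%, 20.0%, 23.3% and 22.5% of the gene reads in EAS replicates 1 to 4 and 0.489% to 0.522% in the AS libraries. The 3266 AS-high features took 17.2%, 15.6%, 17.3% and 18.3% in AS replicates 1 to 4 and 0.485% to 0.708% in EAS. By number, most calls lay at low levels, sorted by the higher of the EAS and AS means. Of 5214 features under 1 CPM, 1116 (21.4%) were EAS-high and 749 (14.4%) AS-high, and of 6291 between 1 and 10 CPM, 1053 (16.7%) and 1114 (17.7%) were. The shares were 5.12% and 9.10% of 11827 features between 10 and 100 CPM, and 6.45% and 9.93% of 3083 between 100 and 1000 CPM. Of the 128 features at 1000 CPM or more, 39 (30.5%) were EAS-high and 21 (16.4%) AS-high. The 100 most abundant features of each face had 34 in common. Of the EAS top 100, 44 were called 8-fold higher in EAS, and of the AS top 100, 33 were called 8-fold higher in AS and 1 in EAS.

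Reads were more concentrated on few features in EAS. The 10 most abundant features held 10.4%, 8.29%, 9.54% and 9.08% of the gene reads in EAS replicates 1 to 4 and 4.43%, 3.93%, 4.43% and 4.84% in AS replicates 1 to 4. The groups did not overlap (exact two-sided permutation p = 0.0286, which is the lowest value possible with 4 against 4 libraries; Benjamini-Hochberg adjusted over 6 measures, p = 0.0572). Fewer features reached 1 CPM in EAS, 18281 to 18741 per library against 19146 to 19469 in AS, and records not uniquely placed were more frequent, 12.5% ± 0.939 against 7.98% ± 0.181 (SD, n = 4). Both measures had the same exact permutation p values as the first, so none of the 3 passed the adjusted threshold. The limit of 1 CPM used library sizes without TMM factors. It was therefore stricter in EAS, where those factors were lower than in AS. Depth was alike, with 45.3 M to 51.8 M gene reads per library in EAS and 47.4 M to 48.9 M in AS.

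Some features were read at one face and not at the other. With at least 1 CPM in each of the 4 libraries of one tissue and 0 reads in the other, 133 features were found in EAS alone and 105 in AS alone, among them the microRNA loci MIR156i and MIR160d, both on the AS side. The same rule gave 87 features in End without reads in Emb and 167 in Emb without reads in End. Its limit of 1 CPM used library sizes without TMM factors, so it was stricter in EAS than in AS. The identifier with the largest fitted fold toward EAS was Zm00001d043276, at 40.1, 36.3, 64.8 and 43.0 CPM in EAS replicates 1 to 4 with 0 reads in AS (at least 3010-fold higher against 3 reads over the 4 libraries, edgeR adjusted p = 2.08e-15). Zm00001d007263 was at 33.1, 47.0, 46.9 and 47.0 CPM with 0 reads in AS (at least 2880-fold, edgeR adjusted p = 1.6e-20). Both were well above End, where they averaged 6.41 and 2.75 CPM. Toward AS, Zm00001d029446 was at 77.2, 91.1, 79.3 and 79.1 CPM with 0 reads in EAS (at least 4580-fold, edgeR adjusted p = 1.94e-19). Zm00001d036917 was at 313, 345, 309 and 328 CPM in AS with 2 reads in EAS, a ratio of 27200, with 7540 to 225000 as its 95% range from counting. No gene name or role can be given for these 4 identifiers. The bounds and intervals cover counting error only.

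The labels were checked with genes enriched in the other tissues. Each list held the genes called 8-fold higher in 1 of Emb, End, scutellar aleurone layer (SAL) and pericarp (Per) than in each of the other 3, chosen on those 16 libraries alone. The 853 Emb-enriched genes took 3.30%, 3.24%, 3.42% and 3.55% of the gene reads in AS replicates 1 to 4, and 0.0682%, 0.0928%, 0.0860% and 0.0916% in EAS. The 277 End-enriched genes took 15.6%, 8.58%, 12.4% and 12.1% in EAS replicates 1 to 4, and 0.138%, 0.131%, 0.134% and 0.126% in AS. Each face thus carried the genes of its own compartment, and the lists' ranges did not overlap between EAS and AS. In such bulk samples, fewer cells of a type and less RNA per cell cannot be told apart.

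Of all tested features 11.4% were EAS-high and 12.3% AS-high. Of the Emb-enriched genes, 676 of 853 (79.2%) were called 8-fold higher in AS and 7 in EAS, with a median log2 change of -6.25. Of the End-enriched genes, 241 of 277 (87%) were 8-fold higher in EAS and 2 in AS, with a median of 7.37. The level in EAS was below that of End itself, where the same genes took 19.3% to 23.8%. Of the genes enriched in SAL, 57 of 130 (43.8%) were 8-fold higher in EAS and 2 (1.54%) in AS. They took 0.0695%, 0.126%, 0.0769% and 0.105% of reads in EAS, against 0.00872% to 0.01% in AS, 0.00854% to 0.0184% in End and 0.370% to 0.563% in SAL. Whether SAL tissue came along with EAS was not tested. Pericarp-enriched genes were low at both faces, at 0.0543% to 0.0733% in EAS and 0.0897% to 0.117% in AS against 3.33% to 3.70% in Per. Toward EAS, 84 of these 697 (12.1%) were called, near the 11.4% of all features. Toward AS, 117 (16.8%) were, above the 12.3% of all features.

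**Figure D2:**
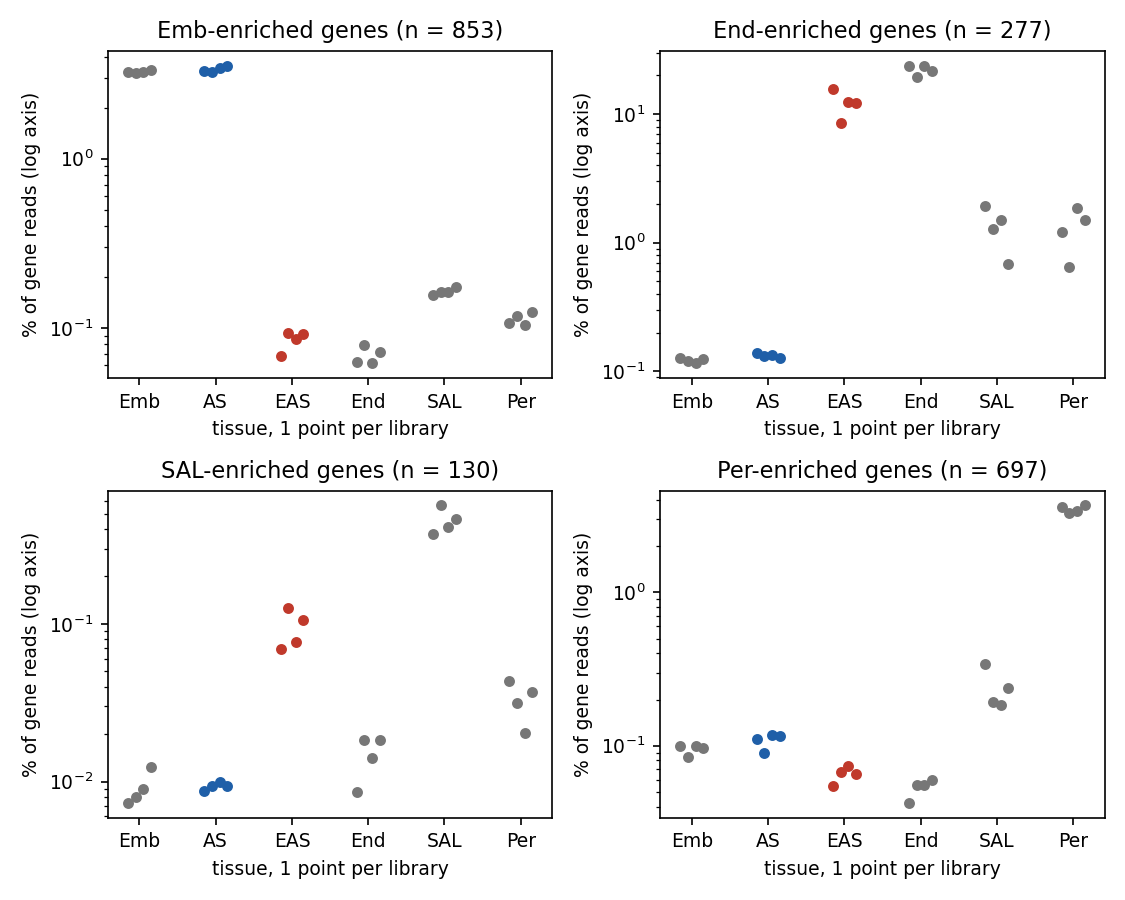
Share of gene reads, in percent on a log axis, taken by genes enriched in embryo (853), endosperm (277), scutellar aleurone layer (130) and pericarp (697), with 1 point per library and AS in blue, EAS in red. AS follows Emb in the first panel and EAS lies below End but far above AS in the second.

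Among microRNA precursors, more loci were called toward AS than toward EAS. This is a count of loci and not of reads: MIR167g alone averaged 44.7 CPM in EAS against 2.61 in AS. Of 154 loci in the files, 48 passed the filter, and 20 of these (41.7%) were called 8-fold higher in AS, where 12.3% of all features were. Toward EAS, 5 of 48 (10.4%) were called 8-fold higher, against 11.4% of all features. At any fold, 26 were higher in AS, 8 higher in EAS and 14 not called. The median log2 change over the 48 was -1.55, against 0.00511 over all features. The larger samples had the same lean. Between End and Emb, 22 of the 48 (45.8%) were 8-fold higher in Emb and 6 (12.5%) in End, where 9.35% and 10.8% of all features were. Of the 20 AS-high loci, 18 were also 8-fold higher in Emb than End, and of the 5 EAS-high loci, 3 were 8-fold higher in End. The lean toward AS was thus not particular to the interface. A locus that passed the filter through the tissue in which it is high was bound to differ, so these shares describe the tested loci only. In 24 loci the 4 AS libraries lay above the 4 EAS libraries and in 6 the reverse, where 38.4% and 38.7% of all features did so. Instead of 5 loci, 9 were called toward EAS when no filter on low counts was applied, and 3 when EAS and AS were fitted alone. Of the 106 untested loci, 73 had 0 reads in the 8 libraries and none had more than 26 reads over the EAS libraries or 30 over the AS libraries.

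**Figure D3:**
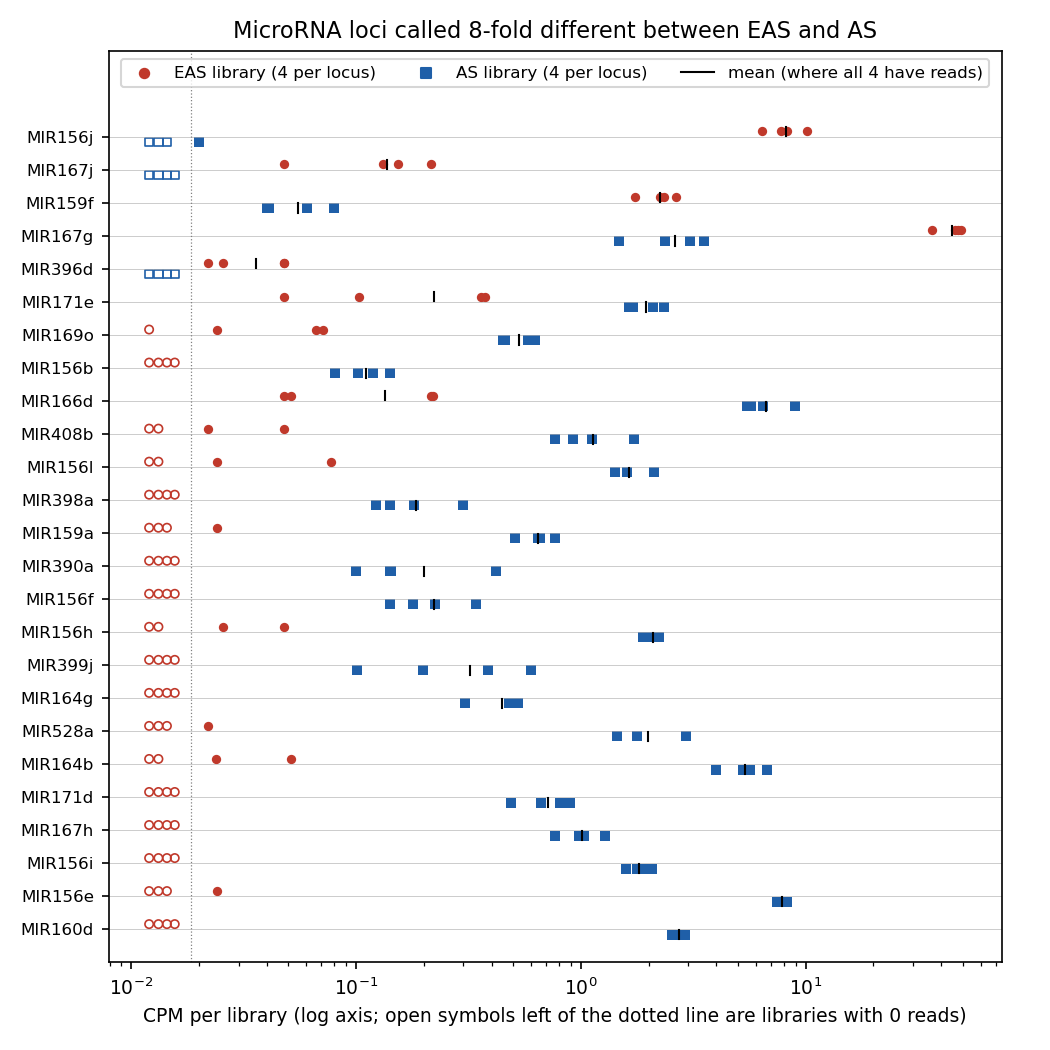
CPM in each EAS (red circles) and AS (blue squares) library, on a log axis, for the 25 microRNA loci called 8-fold different, ordered by the fitted log2 change. Open symbols are libraries with 0 reads, and black ticks are means of 4 libraries where all have reads. The 5 upper loci are EAS-high and the 20 lower ones AS-high, with no overlap between the faces in any of them.

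The MIR156 family, whose microRNA holds back SPL transcription factors and with them the change from juvenile to adult growth, was split by locus. Of 7 tested loci, 6 were called 8-fold higher in AS and 1 in EAS, where 12.3% and 11.4% of all features and 41.7% and 10.4% of the tested loci were. MIR156e was at 7.54, 8.26, 7.45 and 8.25 CPM in AS replicates 1 to 4 and had 1 read over the EAS libraries (ratio 1320, 95% counting interval 237 to 52300, edgeR adjusted p = 1.02e-17). MIR156i was at 1.86, 1.77, 1.59 and 2.06 CPM in AS with 0 reads in EAS (at least 102-fold, edgeR adjusted p = 3.53e-14). The libraries of AS were close together in both loci. MIR156h had 2.22, 2.09, 1.89 and 2.18 CPM in AS and 3 reads in EAS, a ratio of 117 with an interval of 39.9 to 571. MIR156l had 1.41, 1.41, 1.61 and 2.12 CPM in AS and 0, 0, 0.0769 and 0.0240 in EAS (log2 change -5.95, SE 0.48, edgeR adjusted p = 5.8e-13). The remaining AS-high members were scarce. MIR156f averaged 0.222 CPM in AS and MIR156b 0.111, each with 0 reads in EAS, which bounds their folds at 12.4 and 6.21, the latter under 8.

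MIR156j was the member on the endosperm side. It was at 6.41, 7.76, 8.28 and 10.1 CPM in EAS replicates 1 to 4 and had 1 read over the AS libraries, in replicate 2. The ratio was 1620, with 289 to 63800 as its 95% range from counting (edgeR adjusted p = 1.79e-17). All 4 EAS libraries thus lay above all AS libraries. Its level was 0.647 ± 0.112 CPM in End, 4.08 ± 0.801 in SAL, 0.193 ± 0.0945 in Per and 0.0388 ± 0.0193 in Emb (SD, n = 4).

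The MIR159 family, which acts on GAMYB transcription factors, was divided the same way between its 2 tested loci. MIR159f was at 1.74, 2.24, 2.64 and 2.35 CPM in EAS and at 0.0408, 0.0796, 0.0401 and 0.0605 in AS (log2 change 5.27, SE 0.29, edgeR adjusted p = 4.36e-14). MIR159a was at 0.510, 0.656, 0.642 and 0.767 CPM in AS and had 1 read in EAS, a ratio of 108 with an interval of 19.1 to 4310 (edgeR adjusted p = 6.36e-11). Neither locus overlapped between the faces. Of the MIR319 loci, which act on TCP growth regulators, MIR319a had 0 reads at both faces and MIR319d had 1 read in EAS and 0 in AS.

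The MIR167 family, which acts on the auxin response factors ARF6 and ARF8, had members on both sides as well. MIR167g was at 47.6, 36.4, 45.9 and 49.1 CPM in EAS and at 1.47, 3.54, 2.37 and 3.07 in AS (log2 change 4.10, SE 0.28, edgeR adjusted p = 4.15e-12). It averaged 56.9 CPM in End and 5.94 in Emb, and EAS was not called different from End (edgeR adjusted p = 0.212). MIR167j averaged 0.137 CPM in EAS with 0 reads in AS (at least 9.06-fold, edgeR adjusted p = 3.79e-05). MIR167d was higher in EAS below 8-fold, at 0.408 ± 0.220 against 0.111 ± 0.0426 CPM (edgeR adjusted p = 9.68e-05), and its ranges overlapped because EAS replicate 3 stood at 0.128 CPM. On the AS side, MIR167h was at 1.28, 1.03, 0.984 and 0.767 CPM with 0 reads in EAS (at least 57-fold, edgeR adjusted p = 1.38e-10). MIR167a was at 2.32 ± 0.657 CPM in AS and 1.01 ± 0.479 in EAS (log2 change -1.20, SE 0.41, edgeR adjusted p = 0.00983). MIR167c was not called and MIR167e had 0 reads at both faces, which completes the 7 tested members.

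MIR164b, of the family that acts on NAC genes of organ boundaries, was at 5.24, 4.00, 5.62 and 6.70 CPM in AS with 3 reads in EAS, a ratio of 302, with 103 to 1470 as its 95% range from counting (edgeR adjusted p = 1e-18). Its relative MIR164g averaged 0.447 ± 0.0963 CPM in AS with 0 reads in EAS (at least 25.1-fold). MIR160d, of the family that acts on repressive auxin response factors, was at 2.65, 2.53, 2.89 and 2.80 CPM in AS with 0 reads in EAS (at least 152-fold, edgeR adjusted p = 4.47e-09), the AS libraries lying within a narrow range. MIR160b was higher in AS too, at 0.110 ± 0.0504 against 0.0354 ± 0.0303 CPM (edgeR adjusted p = 0.0311), with overlap between the libraries. MIR390a, of the microRNA that starts the TAS3 pathway, averaged 0.201 ± 0.146 CPM with 0 reads in EAS (at least 11.3-fold). MIR166d, of the family that acts on class III HD-ZIP regulators of organ polarity, was at 5.69, 8.93, 5.48 and 6.46 CPM in AS and at 0.0477, 0.220, 0.0513 and 0.216 in EAS (log2 change -5.58, SE 0.31, edgeR adjusted p = 1.02e-13). Of its 3 tested relatives, MIR166c was higher in AS below 8-fold, MIR166a had 1 read and MIR166h was higher in EAS on 9 reads against 1.

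MIR171 microRNAs act on GRAS-domain regulators that keep cells undifferentiated. MIR171e was at 1.63, 2.09, 2.35 and 1.71 CPM in AS and at 0.0477, 0.374, 0.103 and 0.359 in EAS (log2 change -3.10, SE 0.33, edgeR adjusted p = 9.43e-09). The EAS libraries spread widely, with replicates 1 and 3 below 2 and 4. It fell short of 8-fold without EAS replicate 1 (log2 change -2.76), EAS replicate 3 (-2.88) or AS replicate 3 (-2.99), while its adjusted p stayed below 0.05. MIR171d averaged 0.713 ± 0.178 CPM in AS with 0 reads in EAS (at least 40.1-fold), and MIR171f had 0 reads at both faces.

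MicroRNAs that act on copper proteins had 4 tested precursors, each of them called higher in AS at some fold, as were 40.9% of all features and 54.2% of the tested loci. MIR528a was at 1.45, 2.94, 1.77 and 1.78 CPM in AS with 1 read in EAS, a ratio of 334, with 59.7 to 13200 as its 95% range from counting (edgeR adjusted p = 1.6e-13). MIR408b was at 0.918, 1.73, 1.12 and 0.767 CPM with 3 reads in EAS, a ratio of 63.8 with an interval of 21.5 to 311 (edgeR adjusted p = 2.64e-09). In both of these AS replicate 2 was the highest. MIR398a, of the family that acts on copper/zinc superoxide dismutase genes, averaged 0.186 ± 0.0790 CPM with 0 reads in EAS (at least 10.4-fold). MIR398b was at 1.08, 1.69, 1.39 and 1.21 CPM in AS and 0.191, 0.0880, 0.103 and 0.311 in EAS (log2 change -2.94, SE 0.62, edgeR adjusted p = 0.000152), just short of an 8-fold call, which it reached without AS replicate 1 (-3.03), without EAS replicate 4 (-3.38) or without a scaling factor (-3.21).

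Of the other called loci, 4 were higher in AS and 2 in EAS. MIR169o and MIR169c, of the family that acts on NF-YA subunits, averaged 0.528 and 2.12 CPM in AS against 0.0404 and 0.356 in EAS (log2 changes -3.58, SE 0.39, and -2.57, SE 0.24). MIR399j, of the phosphate starvation microRNA, had 64 reads in AS and 0 in EAS, and MIR168b, whose microRNA targets ARGONAUTE1, was at 0.831 ± 0.171 against 0.291 ± 0.154 CPM. Toward EAS were 2 members of the MIR396 family, which acts on growth-regulating factors. MIR396e was at 0.350 ± 0.101 CPM in EAS and 0.146 ± 0.0891 in AS (edgeR adjusted p = 0.00186), while the 8-fold call of MIR396d rested on 6 reads and a bound of 2.36. Not called were MIR396a, MIR169j, MIR168a, MIR2118c, MIR393a, MIR393c, MIR394b, MIR167c, MIR166a, MIR319d and the 4 loci without reads at either face, MIR167e, MIR171f, MIR172e and MIR319a.

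The change across the interface was then set beside that between the larger samples, End minus Emb, which share no library with it. Of the 3013 EAS-high features, 2156 were also 8-fold higher in End than in Emb, which is 71.6% of the former and 75.2% of the 2866 features (10.8% of those tested) called in End. Of the 3266 AS-high features, 1844 were also 8-fold higher in Emb, 56.5% of the former and 74.3% of the 2482 (9.35%) called in Emb. The 2 contrasts thus mostly called the same features. A change of opposite direction at any fold in the larger samples, where 40.9% of all features were higher in End and 41.5% higher in Emb, was called for 115 EAS-high and 77 AS-high features.

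The difference between both changes was tested itself, as (EAS minus AS) minus (End minus Emb). It was called at 8-fold or more for 842 features (3.17%) toward EAS and 1111 (4.19%) toward AS. Without a scaling factor these counts were 976 and 903, so their order depends on the scaling. Among identifiers that were called in both tests, Zm00001d022193 was at 202, 214, 327 and 236 CPM in EAS and 0, 0.0995, 0.0401 and 0.0605 in AS, but averaged 25.6 in End and 2.93 in Emb (difference 9.05, SE 0.66, edgeR adjusted p = 1.42e-10). Zm00001d043276, given above, had a difference of 9.21 (SE 1.14, edgeR adjusted p = 1.5e-06). Its fitted log2 change was 2.85 for EAS against End and -6.365 for AS against Emb. The latter set 0 reads in AS against 0.217 CPM in Emb, so the size of the difference depends on how a count of 0 is fitted. Toward AS, Zm00001d005146 was at 179, 101, 157 and 200 CPM in AS and 0.144 to 0.385 in EAS, while End and Emb averaged 94.0 and 133 CPM (difference -8.61, SE 0.44, edgeR adjusted p = 1.1e-12). Zm00001d033683 averaged 37.2 CPM in AS, 0.0280 in EAS, 7.55 in End and 35.6 in Emb (difference -7.93, SE 0.66, edgeR adjusted p = 3.1e-10). Both AS-side features were thus lowest in EAS among these 4 tissues.

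**Figure D4:**
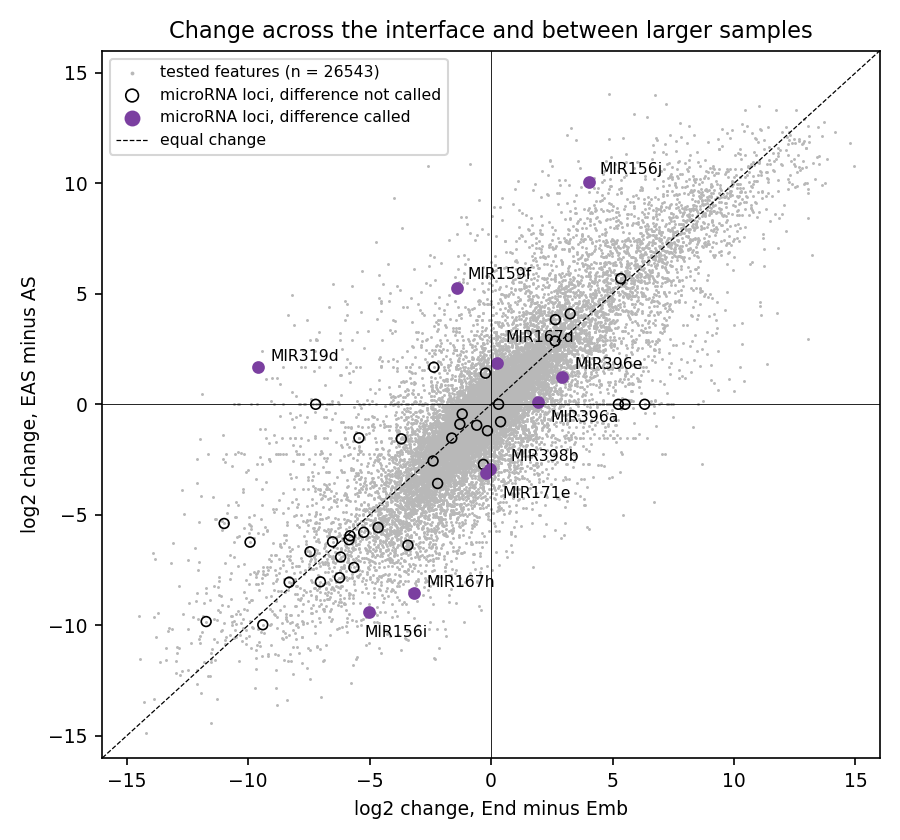
Fitted log2 change between End and Emb (horizontal) and between EAS and AS (vertical) for 26543 features, with the 48 microRNA loci as circles. Filled circles are the 10 loci whose difference between both changes was called, and the dashed line marks equal change. MIR159f and MIR156j lie above the line, MIR171e and MIR398b below it near 0 on the horizontal axis.

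For 10 of the 48 microRNA loci the difference was called, where 51.2% of all features had a called difference at some fold, 25.5% toward EAS and 25.7% toward AS. MIR159f went in opposite directions: it was 0.208, 0.262, 0.214 and 0.224 CPM in End and 0.644, 0.629, 0.419 and 0.745 in Emb, so that it was lower in End (log2 change -1.41, SE 0.29) but higher in EAS. The difference was 6.68 (SE 0.43, edgeR adjusted p = 2.38e-11). It rested on a rise in EAS over End (log2 change 3.29, edgeR adjusted p = 8.31e-11) and a fall in AS under Emb (log2 change -3.39, edgeR adjusted p = 8.47e-08). MIR156j changed in the same direction in both contrasts, by 10.04 across the interface and 4.05 between End and Emb on the log2 scale (difference 5.99, SE 1.22, edgeR adjusted p = 0.000239). EAS was above End by 3.638 (edgeR adjusted p = 6.06e-13). AS against Emb was -2.351 and not called (edgeR adjusted p = 0.119). That part set 1 read in AS against 0.0388 CPM in Emb, so the size of the difference depends on how so low a count is fitted.

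MIR171e and MIR398b showed no called change between End and Emb. MIR171e was at 0.713, 0.873, 1.01 and 1.44 CPM in End and 1.06, 1.57, 1.00 and 1.08 in Emb, which overlap (edgeR adjusted p = 0.453), and the difference was -2.87 (SE 0.45, edgeR adjusted p = 1.2e-05). MIR398b was at 1.69, 3.90, 2.93 and 2.43 CPM in End and 2.37, 3.70, 2.70 and 2.50 in Emb, which overlap as well (edgeR adjusted p = 0.898), and the difference was -2.89 (SE 0.74, edgeR adjusted p = 0.00231). In both loci EAS stood below the other 3 tissues, with a log2 change against End of -2.17 for MIR171e and -3.97 for MIR398b. MIR167h and MIR156i, with 0 reads in EAS but 0.0480 and 0.0483 CPM in End, had differences of -5.37 and -4.37, which depend on how a count of 0 is fitted. MIR167d differed by 1.64 (edgeR adjusted p = 0.0058) and MIR396a by -1.82 (edgeR adjusted p = 0.00156). MIR319d differed by 11.26 because its reads were in Emb, and its call was lost without EAS replicate 4, which held its 1 EAS read. The call of MIR396e (-1.70, edgeR adjusted p = 0.0282) was lost under 8 settings, with adjusted p from 0.0517 to 0.102, among them leaving out AS replicate 3 or 4, Emb replicate 2, 3 or 4, or End replicate 1.

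Features that changed together at both faces were sought by comparing each face with the larger sample of its own compartment, EAS with End and AS with Emb, which share no library. At 2-fold or more, 106 features (0.399%) were higher at both faces and 697 (2.63%) lower at both. Another 338 (1.27%) were higher in EAS than End but lower in AS than Emb, and 320 (1.21%) the reverse. For a single face, 2196 features (8.27%) were 2-fold higher and 4232 (15.9%) lower in EAS than End, and 1054 (3.97%) higher and 2195 (8.27%) lower in AS than Emb. Of the 106 features higher at both faces, 39 had their highest mean among the 6 tissues in AS, 37 in EAS, 19 in Per and 11 in SAL, the choice itself leaving out End and Emb. Of the 697 lower at both, where the choice leaves out EAS and AS, 284 (40.7%) were highest in Per, 183 (26.3%) in SAL, 141 (20.2%) in Emb and 89 (12.8%) in End. Over everything tested, with EAS and AS possible as well, the shares were 23.1% for Per, 12.7% for SAL, 15.3% for Emb and 13.8% for End. EAS took 20% and AS 15.1% there, so these shares cannot be compared directly with those of the 697.

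Among the features with at least 20 CPM in the higher tissue of each comparison and no overlap within it, Zm00001d033246 was at 46.0, 63.2, 69.0 and 64.5 CPM in EAS and 237, 227, 221 and 245 in AS, against means of 22.7 in End and 101 in Emb (log2 changes 1.42 and 1.20, edgeR adjusted p = 2.21e-08 and 5.72e-07). Zm00001d027520 was at 23.5, 18.5, 35.5 and 27.2 CPM in EAS and 24.9, 25.9, 29.6 and 34.1 in AS, against 4.78 and 12.8 (log2 changes 2.44 and 1.17). These levels of EAS and AS overlapped (edgeR adjusted p = 0.544), and it was called higher against both larger samples but not between the faces. Toward lower levels, Zm00001d003379 fell from 180 CPM in End to 5.88 in EAS and from 41.8 in Emb to 1.26 in AS, while SAL averaged 847 CPM. Zm00001d045042 fell from 23700 CPM in End to 4290 in EAS and from 104 in Emb to 8.17 in AS.

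**Figure D5:**
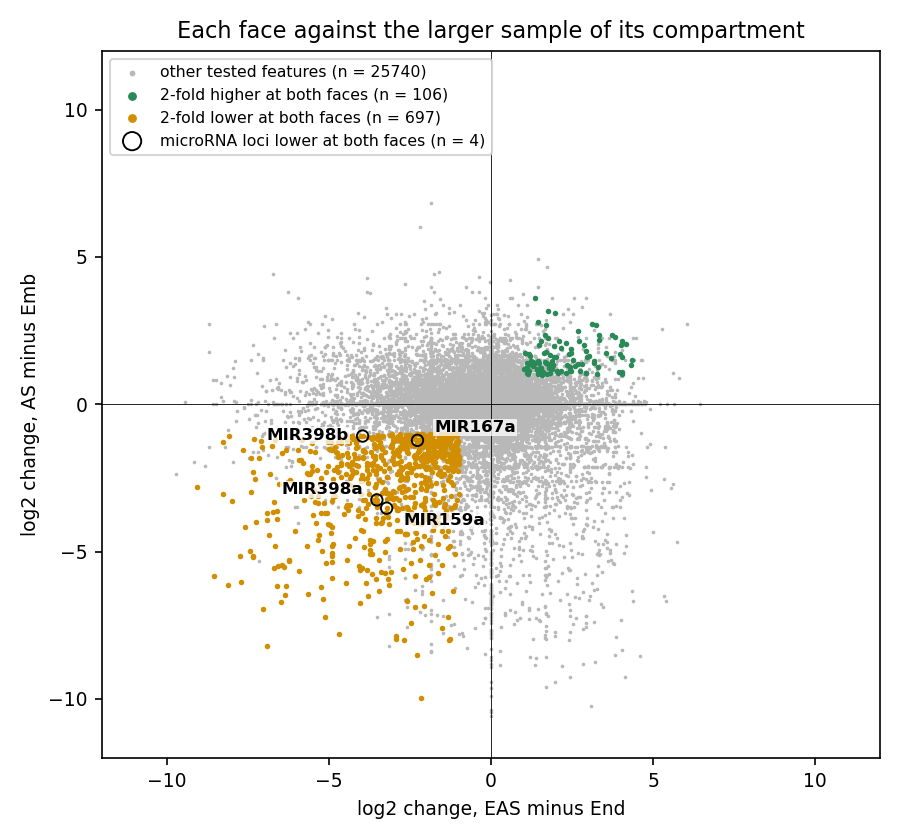
Fitted log2 change of EAS against End (horizontal) and of AS against Emb (vertical) for 26543 features. Green points are the 106 features 2-fold higher at both faces, orange points the 697 lower at both, and circles the 4 microRNA loci lower at both.

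No microRNA locus was 2-fold higher at both faces and 4 were lower at both (8.33% of 48, against 2.63% of all features). MIR398b was at 0.173 ± 0.103 CPM in EAS against 2.74 ± 0.926 in End, and at 1.34 ± 0.264 in AS against 2.82 ± 0.605 in Emb (log2 changes -3.97 and -1.08, edgeR adjusted p = 3.12e-06 and 0.0282). Its relative MIR398a fell to 0 reads in EAS from 0.0288 ± 0.0251 CPM in End and to 0.186 ± 0.0790 in AS from 1.78 ± 0.311 in Emb (edgeR adjusted p = 0.0467 and 1.98e-11), the first change resting on few reads. MIR159a fell from 0.0802 ± 0.0509 to 0.00599 ± 0.012 CPM on the endosperm side and from 7.44 ± 0.402 to 0.644 ± 0.105 on the embryo side (edgeR adjusted p = 0.00299 and 1.56e-14). Here too the change on the endosperm side rested on few reads. MIR167a fell from 4.91 ± 1.63 to 1.01 ± 0.479 CPM and from 5.41 ± 1.33 to 2.32 ± 0.657 (edgeR adjusted p = 2.86e-05 and 0.00592). In MIR167a every AS library lay below the lowest Emb library, which stood at 3.92 CPM. A pair of AS-high loci, chosen after their values were seen, stood far under Emb as well while End and EAS had 0 reads. MIR156b was at 0.111 ± 0.0259 CPM in AS against 5.49 ± 0.942 in Emb (edgeR adjusted p = 1e-09), and MIR390a at 0.201 ± 0.146 against 2.60 ± 0.646 (edgeR adjusted p = 8.47e-09).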

How the data were processed

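The deposited values were whole-number read counts per feature in 1 file per library, not normalised, with the summary rows of htseq-count at the end, per the file contents. Reads were paired-end and without strand information, from RNA selected by its poly(A) tail, per the labels' protocols. TopHat2, Bowtie2 and B73 RefGen_v4 stand in the submitters' processing notes, with no role given. Tool versions, annotation release and counter settings were not given in the sources used here. These summary rows entered neither library sizes nor tests: in the EAS and AS files, 7.81% to 13.8% of records were not uniquely placed, 4.39% to 4.95% lay outside genes and 1.09% to 1.91% were ambiguous. Near-identical copies therefore lose reads, and reads of genes that overlap on the 2 strands were not separable.

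The RefSeq gene table at hand, for Zm-B73-REFERENCE-NAM-5.0, matched 0 of 41614 gene identifiers, so genes are printed by identifier, at most 2 per direction and comparison, and gene lists by symbol could not be used. Of 154 microRNA loci, 153 matched by name.

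The count model was edgeR 4.0.16 under R 4.3.3 (filterByExpr, minimum count 10, TMM scaling, glmQLFit with the bias-adjusted deviance, glmQLFTest) in 1 fit of the 24 libraries with tissue as the term. P-values were adjusted by Benjamini-Hochberg over 26543 tested features. An 8-fold call needed an adjusted p under 0.05 and a fitted log2 change of at least 3. CPM printed as levels used TMM-scaled library sizes. Unscaled sizes were used for the number of features reaching 1 or 5 CPM per library and for features read at one face only. The alternative filter of 1 CPM used unscaled sizes as well. The SE printed is derived from the test (size of the log2 change over root F) and is no fitted standard error. Identifiers named had the largest fitted fold (where 2 changes are involved, the largest smaller change) among 8-fold calls, or 2-fold calls where both faces are compared with End and Emb, with a mean of 20 CPM or more in whichever tissue was higher and no overlap between libraries. MicroRNA loci with an 8-fold call and 1 CPM or more in whichever tissue was higher are given by library. Members, lists and rules were chosen with earlier results of these data known. Alternatives were RLE factors, no scaling factor, no filter, a filter of 1 CPM in 4 libraries, DESeq2 1.42.0, the compared tissues alone, the replicate block, a glmTreat test and leaving out single libraries.

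Same-numbered libraries of EAS and AS share a harvest day in the labels, except number 3, and are paired by that label. The correlation of their deviations from the tissue means over 20388 features was 0.0919, 0.0265, 0.0254 and 0.0700 for numbers 1 to 4. Between EAS and AS libraries of unlike number it ran from -0.129 to 0.0608, which overlaps these values. Replicates of one tissue differed beyond sampling noise (smallest chi-square over degrees of freedom 7.11). They are biological replicates per the design text; plants pooled per replicate are not stated, so p-values reflect only how far these samples spread.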

Additional observations from a re-analysis of the deposited data

Results flagged for a closer look

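In 5 groups of 4 libraries, 1 library lay far from the other 3, with a gap to the nearest of most of the group's range. In all 55 such groups were looked at, and chance alone flags about 1 in 20. The gap was 0.993 of the range for Zm00001d007263 in EAS, where replicate 1 was at 33.1 CPM and the others at 46.9 to 47.0. It was 0.849 for Zm00001d029446 in AS, where replicate 2 was at 91.1 CPM, and 0.838 for Zm00001d003379 in AS, where replicate 3 was at 2.45 CPM. Zm00001d045042 had a gap of 0.854 in EAS, with replicate 1 at 6830 CPM, and 0.870 in AS, with replicate 3 at 13.0 CPM.

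For 10 of the 48 tested microRNA loci (20.8%), the change across the interface differed from that between End and Emb by edgeR's difference test. Of all features, 51.2% had a called difference at some fold. The log2 difference was 5.99 for MIR156j, 6.68 for MIR159f, 1.64 for MIR167d and 11.26 for MIR319d. It was -1.70 for MIR396e, -1.82 for MIR396a, -2.89 for MIR398b, -2.87 for MIR171e, -5.37 for MIR167h and -4.37 for MIR156i.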

How the results depend on the processing

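The 8-fold counts of 3013 EAS-high and 3266 AS-high features ranged from 2206 to 3911 and from 2808 to 3612 over the planned and added settings, and from 3054 to 3143 and 3239 to 3394 with single EAS or AS libraries left out. With the replicate block they were 3025 and 3266, and the block changed no call of a single result checked. The number of microRNA loci called 8-fold higher in EAS was 9 without a low-count filter, which tests more loci, and 3 with the compared tissues only, which tests fewer. Of 56 single results under 1112 setting values, 1103 kept their direction and their side of the adjusted p of 0.05, 9 passed above it (MIR396e 8 times, MIR319d once) and 0 reversed. Settings under which a feature was filtered out or had no adjusted p were left out of this tally, which touched mostly scarce loci. The fold of 8 is a separate limit: across the interface MIR171e fell short of it without EAS replicate 1 (-2.76), EAS replicate 3 (-2.88) or AS replicate 3 (-2.99), and MIR398b reached it without AS replicate 1 (-3.03), EAS replicate 4 (-3.38) or a scaling factor (-3.21). The difference in records not uniquely placed was 4.486 percentage points, and in records outside genes, measured in its place, -0.2162, with overlapping groups. The difference in the share of reads, EAS minus AS, was 4.913 percentage points for the 10 most abundant features and 8.925 for the 50 most abundant. The difference in features detected was -813.5 at 1 CPM and -1712 at 5 CPM, both with library sizes without TMM factors. The other counts of called features or loci stayed within 1.5 times under the settings run for them. The older quasi-likelihood fit and the fit without SAL replicate 2, the shallowest library, were chosen after seeing the data. In a single library 3 reads correspond to 0.0597 to 0.0769 CPM, and levels of loci below that rest on few reads.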
